A study of Yarrowia lipolytica with 9 samples.

Results

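In 16 genes of the oleaginous yeast Yarrowia lipolytica, the transcript level was lower in the strain labelled Y5_2 and higher in the strain labelled Y5_3 than in the strain labelled ctrl. They were chosen by their measured values, from 6145 features counted by RNA sequencing. The counts were divided by DESeq2's median-of-ratios factors, which set the samples to a common scale, and L2 and L3 are the log2 of the mean of Y5_2 and of Y5_3 over the mean of ctrl. The rule took coding features with a RefSeq transcript accession (XM_), a mean ctrl level of at least 2 CPM (a read count scaled to the total count of its sample), L2 at most -0.35 and L3 at least 0.35, and left out the 100 features with the highest ctrl FPKM (fragments per kilobase of feature, scaled to the sample's total count). Of the 5569 features that the rule could pick, 490 met the threshold on L2, which is 8.80%, and 448 met that on L3, which is 8.04%, and the 16 members met both.

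All strains descend from ATCC 201249, a MATA strain with mutant alleles of ura3, leu2 and lys8 and a tagged PEX17-HA, and carry a carotene pathway of crtE, crtB, crtI and crtY in the rDNA, together with added cassettes of Yl-SPT15 inserted at GUT2, whose own expression is only partly reduced by the insertion. In Y5_2 (Yl_5_2 in the study's text) the cassettes include the substitutions E208A in the first module and P25T, A213T and A216V in the fifth. In Y5_3 (Yl_5_3) there is, as the study's text assigns it, the single substitution F194L in the second module, although the heading of that sequence in the supplement names Yl_5_2, and in ctrl (Yl_5_1) all cassettes are wild type. These substitutions name the wild-type residue, its position from the first methionine and the new residue. Each mutant strain is 1 colony picked by eye for its colour, so that in these RNA samples other differences between the colonies cannot be told apart from those of the cassettes. The study also put the substitutions on a plasmid into Yl_5_1 and reported that they affected carotene production. Each strain gave 3 samples, from flask cultures at 28 °C and 250 rpm for 96 h. The labels do not say whether these were separate cultures, and the spread between samples may thus be technical.

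Yl-Spt15 is the counterpart of the TATA-binding protein, which in Saccharomyces cerevisiae is encoded by SPT15. This protein is a subunit of the general transcription factor TFIID and contacts the core promoter, and it takes part in the initiation of transcription by all nuclear RNA polymerases. Y. lipolytica is known for storing triacylglycerol in lipid bodies, and the strains were built to study carotene and lipid production. The files and the reference table give accessions and locus tags without a gene product, so no function can be attached to the members here, and the feature of Yl-SPT15 itself cannot be picked out.

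The samples held between 17771507 and 23288547 counts. The squared Pearson correlation of log2(FPKM + 1) was at least 0.994 between samples of a strain and at most 0.975 between samples of different strains, so no library stood apart from its strain. No pair of samples agreed within sampling noise, since the chi-square of their counts was at least 3.34 per degree of freedom.

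The fall in Y5_2 reached further than the rise in Y5_3. Over the 16 members L2 lay between -1.80 and -0.38 with a median of -0.48, while L3 lay between 0.38 and 0.75 with a median of 0.52. An L2 of -1 or lower was reached by 3 members and an L3 of 1 or higher by 0 members. The fall was the larger of the changes in 9 members and the rise in 7. Between the mutant strains, the level in Y5_3 was from 1.69 to 5.04 times that in Y5_2. Over all features that the rule could pick, the median was -0.0038 for L2 and 0.01 for L3. These values selected the members and describe them, without being a test of them.

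**Figure D1:**
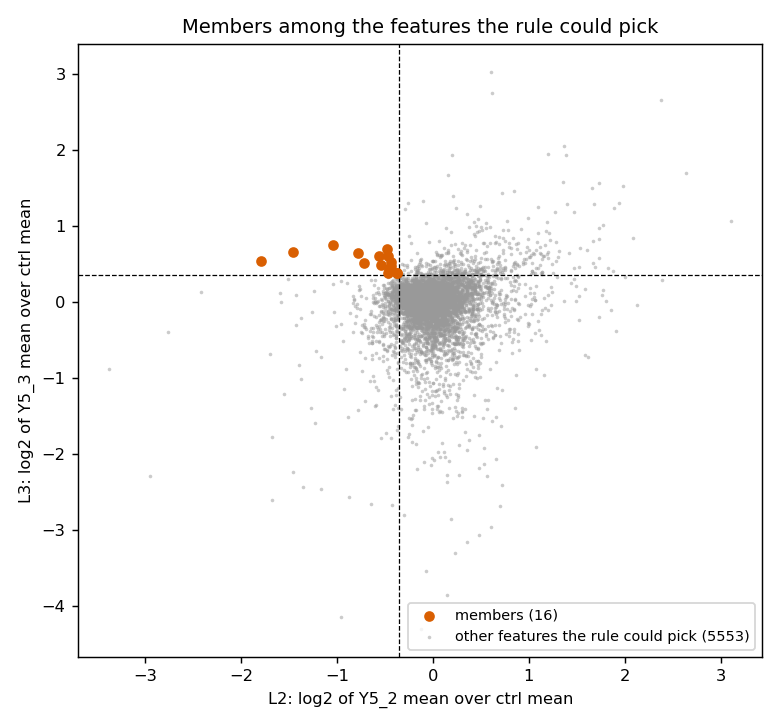
Each point is 1 of the 5569 features the rule could pick, with L2 on the horizontal axis and L3 on the vertical axis, both as log2 ratios to ctrl, and the dashed lines mark the thresholds of -0.35 and 0.35. The 16 members are in orange, and only 3 of them reach an L2 of -1 or lower, while their L3 stays at or under 0.75. The same ctrl samples enter both axes.

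The widest change was that of XM_503602.1, a feature of 4176 bases. Its normalised count, which is the count divided by the median-of-ratios factor, was 20474, 17228 and 20029 in Y5_2 and 95336, 98156 and 97261 in Y5_3, against 63897, 62556 and 74153 in ctrl. The highest Y5_2 sample was thus at 32.7% of the lowest ctrl sample, and every Y5_3 sample was above every ctrl sample. L2 was -1.80 (standard error 0.11) and L3 was 0.54 (standard error 0.08), a 5.04-fold ratio of Y5_3 to Y5_2. This feature alone took from 0.0943% to 0.113% of all counts in Y5_2 and from 0.477% to 0.491% in Y5_3, against 0.333% to 0.388% in ctrl. It was also the largest contributor among the members, with 32.1% to 35.5% of their summed counts in Y5_2 and 54.7% to 55.4% in Y5_3, against 53.5% to 56.7% in ctrl.

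XM_503219.1 (locus tag YALI1_D31624g in strain W29, 1044 bases) was the next in width, with little spread between replicates. It had normalised counts of 984, 935 and 954 in Y5_2 and of 3998, 4158 and 4299 in Y5_3, against 2573, 2660.1 and 2662 in ctrl. The strains did not overlap, and the standard deviation within a strain was at most 3.63% of the mean. L2 was -1.46 (standard error 0.03) and L3 was 0.66 (standard error 0.03).

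XM_503823.1 (YALI1_E14350g, 675 bases) showed the highest rise of the members in Y5_3. Its normalised counts were 2332, 2296 and 2456 in Y5_2 and 8457, 8029.7 and 7947 in Y5_3, against 4567, 4619 and 5392 in ctrl. In Y5_2 the level was 51.4% lower than in ctrl and in Y5_3 it was 67.6% higher, without overlap of the samples. L2 was -1.04 (standard error 0.08) and L3 was 0.75 (standard error 0.08).

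XM_501878.1, of 141 bases or 47 codons with the stop, was the shortest member and the most abundant per length. It had normalised counts of 2226, 2181.6 and 2222 in Y5_2 and of 5464, 5925 and 6477 in Y5_3, against 3429, 3348 and 4652 in ctrl. The third ctrl sample was well above the other two, so that ctrl had a standard deviation of 19.2% of its mean, against 1.12% in Y5_2 and 8.52% in Y5_3, and still no strain overlapped another. L2 was -0.79 (standard error 0.16) and L3 was 0.64 (standard error 0.17). This feature is shorter than a sequencing read of the study, and its FPKM is scaled to that length.

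An L3 minus L2 of 1 or more was found in 9 members, and 3 more of them follow here. XM_503880.1 (YALI1_E15865g, 1008 bases) had normalised counts of 1377, 1362 and 1392 in Y5_2 and 3072, 3342 and 3282 in Y5_3, against 2203, 2277 and 2308 in ctrl. XM_503372.1 (YALI1_E00824g, 1383 bases) had 5527, 5288 and 5334 in Y5_2 and 11974, 12363 and 12346 in Y5_3, against 7754, 7403 and 7422 in ctrl. XM_500835.1 (YALI1_B17724g, 876 bases) had 713, 671 and 723 in Y5_2 and 1515, 1586 and 1639 in Y5_3, against 1142, 977 and 991 in ctrl. All 3 were without overlap in either comparison. They differed in which side was larger: XM_503880.1 fell by 0.72 on the log2 scale in Y5_2 and rose by 0.51 in Y5_3, whereas XM_503372.1 fell by 0.48 and rose by 0.70, and XM_500835.1 fell by 0.56 and rose by 0.61, with standard errors of at most 0.08.

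**Figure D2:**
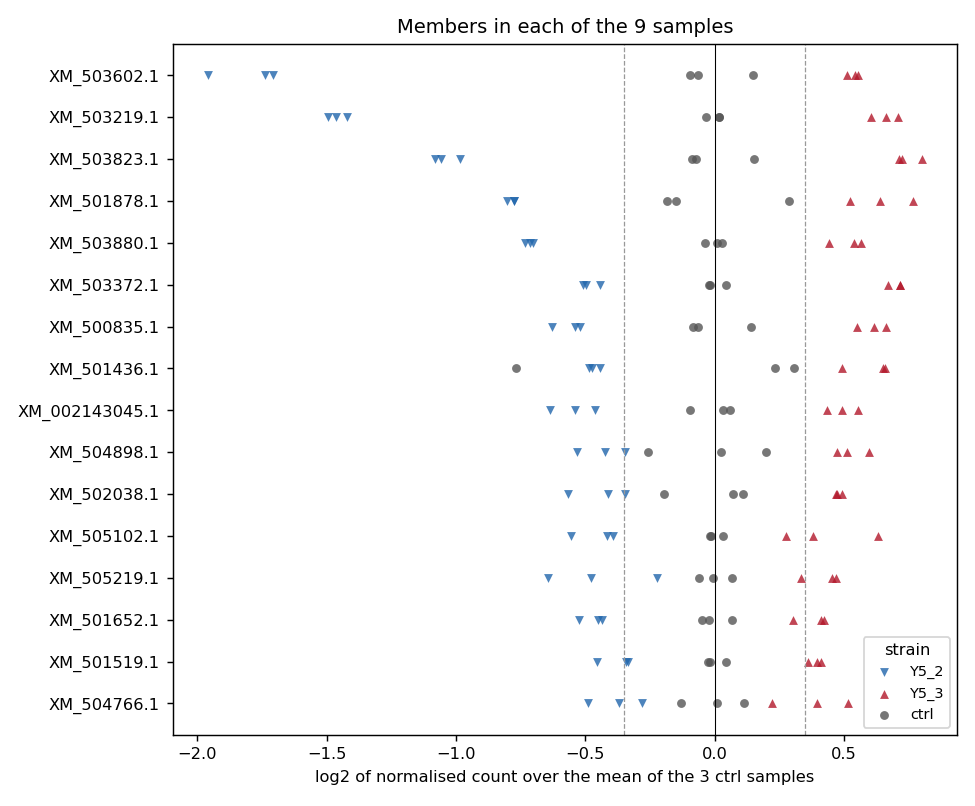
Each row is a member, ordered by L3 minus L2, and each mark is 1 sample of Y5_2, Y5_3 or ctrl, as the log2 of its normalised count over the mean of the 3 ctrl samples. The dashed lines lie at -0.35 and 0.35. Y5_2 samples lie left of all ctrl samples except in XM_501436.1, where the third ctrl sample lies at the low end, and all Y5_3 samples lie right of the ctrl samples.

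Among the short members, XM_002143045.1 (YALI1_E27313g, 294 bases) had normalised counts of 2796, 2648 and 2477 in Y5_2 and 5197, 5413 and 5656 in Y5_3, against 3940.4, 4016 and 3600.2 in ctrl. XM_504898.1 (YALI1_F03494g, 393 bases) had 3519, 3709.5 and 3270.0 in Y5_2 and 7145, 6561 and 6729 in Y5_3, against 3951, 5421 and 4801 in ctrl. XM_502038.1 (YALI1_C28093g, 576 bases) had 1601, 1676 and 1439.6 in Y5_2 and 2992, 2945 and 2953 in Y5_3, against 1859.7, 2236 and 2297 in ctrl. In the last 2 the first ctrl sample was the lowest, and the highest Y5_2 sample came to 93.9% of it in XM_504898.1 and to 90.1% in XM_502038.1, so that the gap was narrow although the samples did not overlap. L2 was -0.54, -0.43 and -0.44 in the order of these genes, with standard errors of 0.07, 0.14 and 0.11. L3 was 0.49, 0.53 and 0.48, with standard errors of 0.06, 0.14 and 0.09.

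The other 5 members with more than 10 CPM in ctrl had the smallest L3 minus L2, between 0.76 and 0.89. XM_505102.1 (YALI1_F10224g) averaged 435 ± 25.7 in Y5_2 and 806 ± 104 in Y5_3, against 596 ± 11.5 in ctrl (normalised counts, SD, n = 3 each). XM_505219.1 (YALI1_F13268g), the second longest member with 2640.0 bases, averaged 286 ± 42.8 in Y5_2 and 519 ± 26 in Y5_3, against 388 ± 17.3 in ctrl. XM_501652.1 (YALI1_C13453g) averaged 12082 ± 387 in Y5_2 and 21757 ± 986 in Y5_3, against 16733 ± 716 in ctrl. Of these genes the first varied most in Y5_3 and the second in Y5_2, where the standard deviation was 12.9% and 15.0% of the mean. XM_501519.1 (YALI1_C08702g) averaged 2621 ± 119 in Y5_2 and 4454 ± 81.2 in Y5_3, against 3404 ± 93.6 in ctrl, and XM_504766.1 (YALI1_E40691g) averaged 549 ± 39.3 in Y5_2 and 929 ± 94.7 in Y5_3, against 713 ± 59.8 in ctrl. For the last gene the lowest Y5_3 sample was at 108% of the highest ctrl sample.

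XM_501436.1 (YALI1_C05789g, 1470.0 bases) was the member with the fewest reads, between 26 and 81 per sample, while all others had at least 255. Its normalised counts were 34.3, 35 and 34.1 in Y5_2 and 67.0, 74.8 and 75.1 in Y5_3, against 56.1, 58.9 and 28.0 in ctrl. The third ctrl sample lay below all Y5_2 samples, and the standard error was 0.30 on the log2 scale for both L2, at -0.47, and L3, at 0.60. In edgeR's fit the log2 fold change was -0.50 in Y5_2, which did not pass an adjusted p of 0.05, and 0.55 in Y5_3, which passed. Without ctrl replicate 3 these were -0.74, which passed, and 0.31, which did not. In Y5_3 it also missed the threshold without Y5_3 replicate 2, at 0.52, without Y5_3 replicate 3, at 0.53, and when scaled by total counts, at 0.49.

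Over the members, 15 of 16 had all Y5_2 samples below all ctrl samples, and 16 of 16 had all Y5_3 samples above all ctrl samples. Of the 6037 features tested by edgeR, 30.9% had all Y5_2 samples below ctrl and 34.3% had all Y5_3 samples above it. By edgeR's quasi-likelihood test at an adjusted p under 0.05, 15 members were lower in Y5_2, where 30.0% of the tested features were, and 16 were higher in Y5_3, where 25.6% were. The rule used these comparisons, and nothing is read from the counts.

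The ctrl level, which the rule used only as a limit, and the length, which it did not use directly, also describe the genes. Most members were well expressed in ctrl. The FPKM in ctrl, which the rule bounded at both ends, had a median of 181 over the members and of 48.3 over the 5569 features, and 10 of the 16 members lay above the upper quartile of those features. The range was nevertheless wide. XM_501878.1 had 865 ± 15.8 FPKM in Y5_2 and 2105 ± 165 FPKM in Y5_3, against 1430.4 ± 256 FPKM in ctrl (SD, n = 3 each), whereas XM_501436.1 had 1.29 ± 0.00883 FPKM in Y5_2 and 2.45 ± 0.147 FPKM in Y5_3, against 1.72 ± 0.632 FPKM in ctrl. XM_503602.1 was the second in level among the members in Y5_3, with 1157 ± 17.4 FPKM, and in ctrl, with 848 ± 70.3 FPKM, but was the fifth in Y5_2, with 254 ± 24.9 FPKM. Together the members took between 0.294% and 0.319% of the counts in Y5_2 and between 0.864% and 0.888% in Y5_3, against 0.622% to 0.684% in ctrl. The FPKM values and these shares come from the counts that the rule used, so the order of the strains in them is not a separate result.

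**Figure D3:**
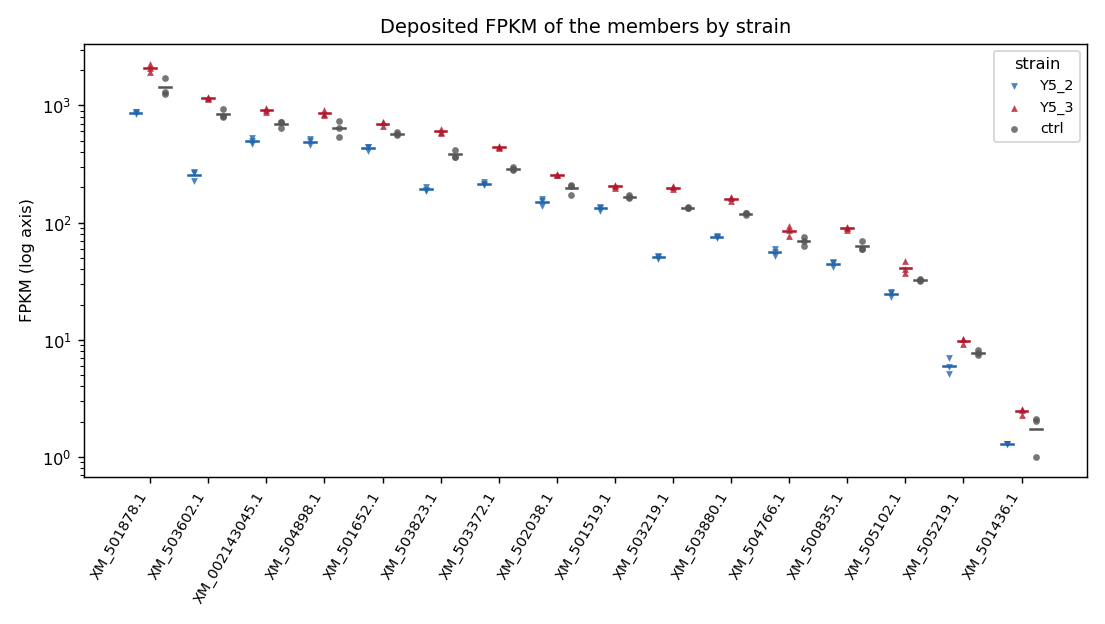
Deposited FPKM of each member on a log axis, with 3 samples and their mean as a bar for Y5_2, Y5_3 and ctrl, ordered by the ctrl mean. Ctrl means run between 1.72 and 1430.4 FPKM. In every member the Y5_2 mean is the lowest and the Y5_3 mean is the highest, as the rule selected.

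The length, computed from the deposited counts and FPKM, was a multiple of 3 in all 16, as in 99.9% of all XM_ features. It had a median of 991.5 bases, against 1263 bases over the features the rule could pick. Of the members 5 were under 600 bases, which is 31.2%, while 12.6% of the 5569 features were. Both medians of level and length rest on 16 genes chosen by their change, so they are given as a description.

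Of the members, XM_503602.1 and XM_501878.1 were not found in the reference table of strain W29, so their position is not known here. The locus tags of the 14 members found in it carry the letter of their chromosome. There were 5 on 1E, 4 on 1C, 3 on 1F, 1 on 1B, 1 on 1D and 0 on 1A, where the matched features that the rule could pick were distributed as 23.4%, 13.2%, 21.6%, 15.1%, 17.2% and 9.57%. None of these 14 was next to another of them. For each of the 14 the nearest gene on either side with a feature that the rule could pick was taken. This gave 28 neighbours that the rule had not selected, 19 of them with no gene between. For the others up to 4 genes were passed over. Those genes had no matched feature or one that the rule could not pick, so some of them may have been measured.

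The values of the neighbours lay on both sides of 0. Their median was 0.06 for L2 and 0.04 for L3. Of the 28 neighbours 12 had an L2 below 0, which is 42.9%, and 15 had an L3 above 0, which is 53.6%, and over all features the rule could pick these shares were 50.6% and 52.2%. An L2 of -0.35 or lower was found in 1 neighbour, XM_503825.1, on the side of XM_503823.1, but its L3 was -0.39. An L3 of 0.35 or higher was found in 2 neighbours, XM_503218.1 beside XM_503219.1 and XM_501435.1 beside XM_501436.1, with L3 of 0.76 and 0.72, and both were higher in Y5_2 as well, with L2 of 0.69 and 0.79. Among the neighbours the highest L2, of 1.24, belonged to XM_501651.1 beside XM_501652.1, and the lowest L3, of -1.03, to XM_503885.1 beside XM_503880.1. These neighbours were named after their values were seen.

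**Figure D4:**
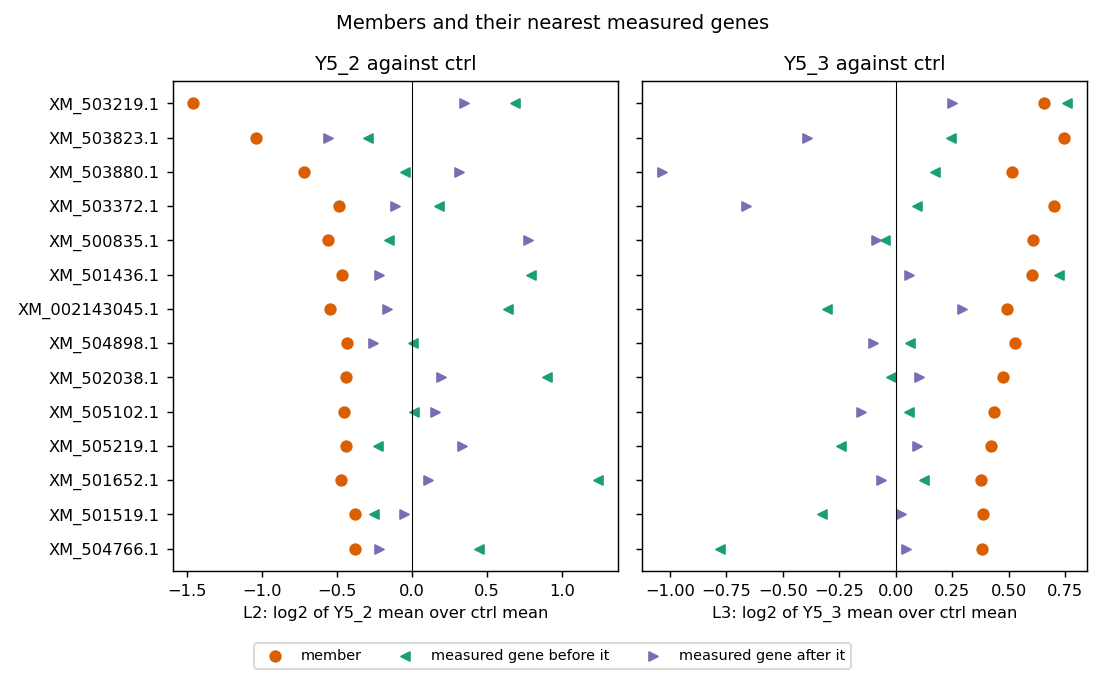
For each of 14 members, the member and its neighbours are placed by L2 (left, Y5_2 against ctrl) and L3 (right, Y5_3 against ctrl), both on a log2 scale. The neighbours, labelled as measured genes, are the nearest genes before and after it with a feature that the rule could pick. Members lie left of 0 in the first panel and right of 0 in the second by the rule, while the 28 neighbours lie on both sides, between -0.56 and 1.24 and between -1.03 and 0.76.

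Several members stood close to the threshold. Just inside it were XM_501519.1 with an L2 of -0.38 and an L3 of 0.39, XM_501652.1 with -0.47 and 0.38, and XM_504766.1 with -0.38 and 0.38. Just outside were XM_503687.1 with an L2 of -0.34 and an L3 of 0.38, XM_501513.1 with -0.34 and 0.34, and XM_501851.1 with -0.40 and 0.33. Over all members the standard error of L2 lay between 0.02 and 0.30. A limit of 0.30 in place of 0.35 gave 35 genes.

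Some features passed both thresholds on the change but not the other terms of the rule. Among the 100 most abundant features there were 3: XM_002143076.1 with an L2 of -0.37 and an L3 of 0.53, XM_501745.1 with -0.54 and 0.46, and XM_504489.1 with -0.40 and 0.37, at ctrl means of 4743, 3673 and 2681 FPKM. Of the transcripts that the authors had added without a RefSeq accession, 1 passed, Novel00121, with an L2 of -0.36 and an L3 of 0.36. A further 5 features with an accession passed at less than 2 CPM in ctrl.

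Which genes were members depended in part on single samples and on scaling. Of the 16, 10 met the rule with each of the 9 samples left out in turn, and 11 met it under each of 3 other scalings. The 9 that did both were XM_503602.1, XM_503219.1, XM_503823.1, XM_501878.1, XM_503880.1, XM_503372.1, XM_500835.1, XM_002143045.1 and XM_502038.1. XM_504766.1 met it in 5 of the 9 and XM_501436.1 in 6, while XM_504898.1 lost its place only without ctrl replicate 2. With total counts as the scale 5 members fell out, XM_501519.1, XM_501652.1, XM_504766.1, XM_505102.1 and XM_505219.1, although in all 16 L2 stayed below 0 and L3 above 0 under each of these scalings and with each sample left out.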

How the data were processed

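RNA of 9 samples (3 strains) had been sequenced from NEBNext Ultra libraries as paired-end reads. The authors deposited raw read counts (whole numbers) for 6145 features, and deposited FPKM values that equal the counts divided by feature length and total count. Per the labels, HTSeq 0.6.1 and DESeq 1.18.0 were used, and the aligner, build and annotation are not given in the sources used here.

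The members were found from the counts as the rule states. Standard errors of L2 and L3 come from the coefficients of variation of both strains (3 samples each). Fold changes were fitted over the 6037 features that reached 10 counts in 3 or more samples, with edgeR 4.0.16 in R 4.3.3 (TMM factors, 1 term per strain, 9 samples, quasi-likelihood F test, Benjamini-Hochberg adjustment), after the script was tested on simulated data. Alternatives were other scalings, filters and thresholds, DESeq2 1.42.0, limma 3.58.1 on log2(FPKM + 1) and log2(FPKM + 0.1), fits restricted to the strains compared, a replicate block and leaving out each sample.

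Accessions were matched without their version to RefSeq assembly ASM176148v1 of strain W29: 5430 of the 5959 accessions and 14 of the 16 members were found, 619 and 2 of them with the same version. It was used for locus tags and neighbours, and all its 8689 symbols are locus tags, so that 24 lists of pathways, matched by name, held 0 genes and were not tested. No sequence of a member was analysed here. Genes named were the 10 members with the largest L3 minus L2 among those with at least 10 CPM, those with a change of 2-fold or more, the 5 with the highest ctrl FPKM and those nearest the threshold, and the other members were added because all 16 are described. The members and lists were chosen with earlier results of these data known.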

Additional observations from a re-analysis of the deposited data

How the results depend on the processing

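The number of members was 16 and stayed within 1.5 times that number under every scaling and filter and with each sample left out, where it lay between 14 and 19, but was 35 at a threshold of 0.30. With total counts the median L2 moved to -0.42 and the median L3 to 0.43, and upper-quartile factors moved the median L3 to 0.49. With each sample left out, the median L2 lay between -0.54 and -0.48 and the median L3 between 0.51 and 0.54. Over all features that the rule could pick, total counts gave medians of 0.05 for L2 and -0.08 for L3. Median-of-ratios factors gave -0.0038 and 0.01 over the same features, and upper-quartile factors gave a median L3 of -0.02. For the moves the cause was not tested, apart from the lower limit, which admits more genes by construction.

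Members called lower in Y5_2 numbered 15 and members called higher in Y5_3 numbered 16 in edgeR's fit, and under every alternative both counts were 15 or 16. Over the same fits, from 1316 of 6037 to 1821 of 6136 tested features were called lower in Y5_2. From 1041 to 1768 of 6037 were called higher in Y5_3. The rule used these comparisons, so nothing is read from the steady counts of members. The replicate block gave 15 and 16, and it changed no call of a member. Samples of different strains with the same replicate number did not consistently deviate together. The correlations of their deviations from the strain means lay between -0.33 and 0.21, and over 0.1 in 3 of 9 pairs. For samples with different numbers these correlations lay between -0.40 and 0.43, and over 0.1 in 6 of 18 pairs. The numbers were thus not taken as pairs, and whether samples of different strains share another structure was not tested. All calls that changed with a scaling in edgeR or a left-out sample were those of XM_501436.1, the member with the fewest reads, and the cause was not tested. Its standard deviation was 35.9% of the mean in ctrl, where 1 sample lay apart, against 1.42% in Y5_2 and 6.33% in Y5_3, while counting alone gives 19.6% at its lowest count of 26.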
